A study of Homo sapiens with 6 samples.

Results

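The intermediate filament genes of A375 cells, a human melanoma cell line, were described in RNA-seq libraries with and without RIPK4. They were taken as every row of the gene count table whose symbol is KRT, a number and at most 1 further letter, together with VIM, NES, LMNA, LMNB1, LMNB2, SYNM, SYNC, DES, GFAP, NEFL, NEFM, NEFH and the linker PLEC. This gave 38 of the 20851 genes in the table, 25 of them keratin rows and 13 of them other genes. INA was not analysed here. The comparison asks how loss of RIPK4, a receptor-interacting serine/threonine kinase known from keratinocyte differentiation, relates to the RNA of melanoma cells. A375RIPK4.KO cells (3 libraries) had received a lentiviral sgRNA against RIPK4 in the CRISPR/Cas9 system. A375neg cells (3 libraries, labelled as the GFP control) had received an sgRNA without a target in the human genome. All A375RIPK4.KO libraries came from clone #1, so the loss of RIPK4 and the properties of that clone cannot be told apart. The replicates are described as biological, but what separated them (culture, passage or day) was not given in the sources used here, so p-values measure only the spread between these libraries.

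Intermediate filaments are rope-like polymers that give cells mechanical strength. Keratins polymerize only as pairs of an acidic type I and a basic type II chain, and each epithelium uses its own pairs: KRT8 with KRT18 in simple epithelia, KRT5 with KRT14 in basal epidermis, KRT6 with KRT16 or KRT17 in stressed or proliferating epidermis, and the hair keratins in the hard shaft of hair and nail. Cells of neural crest origin such as melanocytes build most of their cytoplasmic filaments from vimentin, a type III protein, while lamins (type V) line the inside of the nuclear envelope in nearly all cells.

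Each library held between 21882863 and 26694140 counts assigned to genes, so that 3 counts corresponded to 0.112 to 0.137 CPM (a count relative to the size of its library), the limit that a count of 0 allows. Such limits cover counting error only. The targeted gene RIPK4 had 319, 368 and 404 raw counts in A375neg and 42, 51 and 61 in A375RIPK4.KO. Its log2 fold change was −2.69 (standard error 0.17, edgeR's quasi-likelihood test, adjusted p = 1.01e-05), so it was lower in the libraries labelled as knockout, and some RIPK4 RNA was counted in each of them. On a principal component that held 14.9% of the variance, A375RIPK4.KO replicate 2 lay apart from the other 2 knockout libraries, at −34.6 against 25.7 and 14.1. Of the melanoma and melanocyte markers, SOX10, the neural crest transcription factor, had 8844 to 10056 raw counts in A375neg and 7448 to 7858 in A375RIPK4.KO. Its log2 fold change of −0.20 did not pass (edgeR, adjusted p = 0.0507). The receptor tyrosine kinase AXL had 13990 to 16096 raw counts over both groups. The transcription factor MITF had 440 to 535 raw counts in A375neg and 288 to 376 in A375RIPK4.KO. It was less than 1.5-fold lower (log2 fold change −0.44, edgeR, adjusted p = 0.0449). Markers of this list that were called lower are given further below. Pigment genes were low or not analysed here, with PMEL at 3 to 22 raw counts and TYRP1 at 1 to 8. In bulk libraries, fewer cells that express a gene and less RNA of it per cell cannot be told apart.

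Between the groups, 7 of the 23 members with enough counts to be tested were called different, and all 7 were keratins. KRT81, a hair keratin, was nearly lost from A375RIPK4.KO cells (155-fold lower), KRT9, KRT14, KRT6B, KRT86 and KRT7 were 2.44 to 7.17-fold lower, and KRT6A was 1.53-fold higher. The abundant filament genes VIM, KRT18, LMNA, KRT80 and NES differed by less than 1.5-fold. Calls rest on edgeR's quasi-likelihood test with 3 libraries per group. They needed a Benjamini-Hochberg adjusted p under 0.05 over the 14443 tested genes, together with a difference of 1.5-fold or more. The 7 called members were 30.4% of those tested, beside 9.04% of all genes tested. With near-identical members added as 1 feature each (KRT81 with KRT86, and KRT6A with KRT6B and KRT6C), 4 of 21 were called (19%), beside 9.22% of all features. By direction, 6 members were lower, beside 4.65% of all genes, and 1 was higher, beside 4.39%. The median log2 fold change of the tested keratins was −0.91, that of the 9 tested non-keratin members was 0.08 and that of all tested genes was −0.0047. Of the 14 tested keratins, 12 had a negative log2 fold change. Without the fold limit, 12 of the 23 tested members (52.2%) passed, beside 16.6% of all genes. The normalized counts of A375neg and A375RIPK4.KO did not overlap in 14 of the 23 (60.9%), beside 36.5% of all genes.

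**Figure D1:**
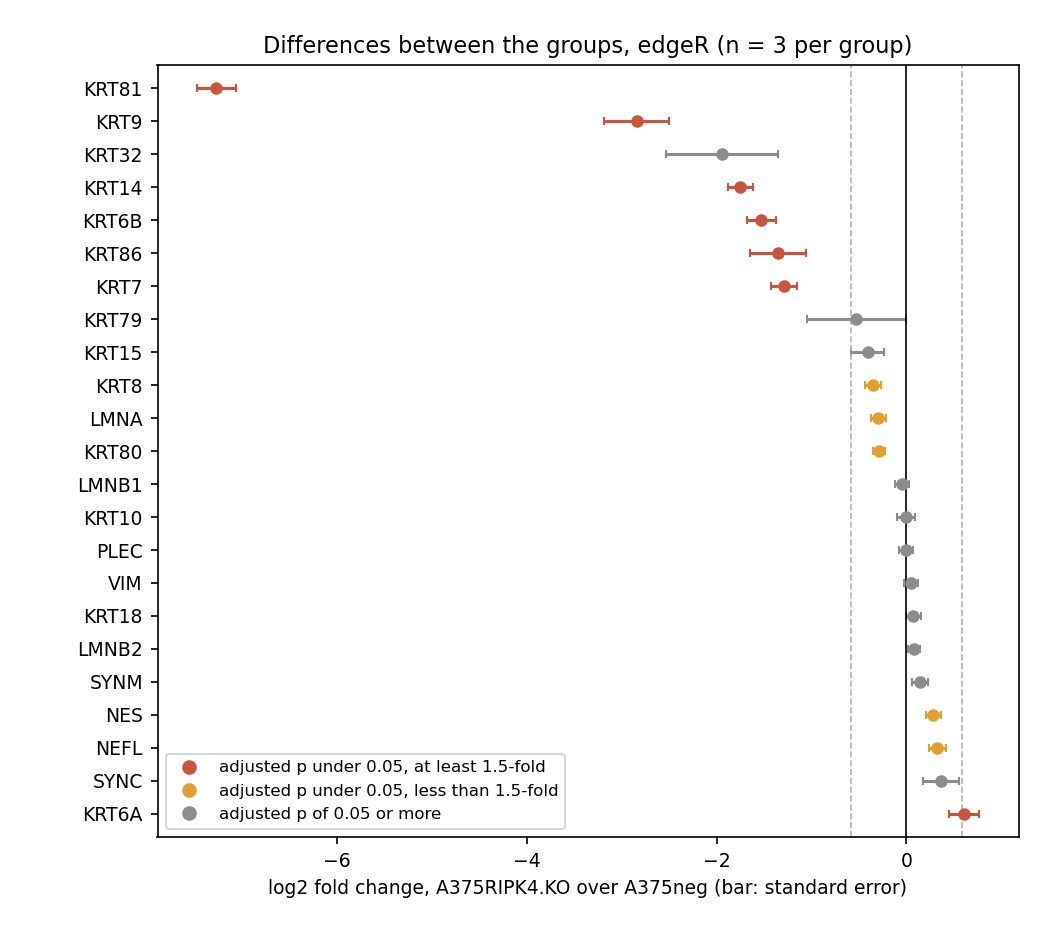
Log2 fold change of each tested member, A375RIPK4.KO over A375neg (points), with its standard error (bars) from edgeR with 3 libraries per group. Dashed lines mark the 1.5-fold limit in both directions, red points passed both limits and orange points passed the adjusted p alone. KRT81 lies far to the left at −7.27, and KRT6A is the 1 red point to the right of 0.

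Levels of different genes were compared per length, as CPM divided by the length of each gene's principal transcript in kb (RPKM, with TMM-scaled library sizes). Of the 23 tested members, VIM had the highest RNA level in A375neg, at 2513 RPKM (mean of 3 libraries), followed by LMNA at 868 and KRT18 at 553. KRT80 followed at 114, then NES at 99.7 and PLEC at 92.1, of which NES and PLEC overlapped between libraries. KRT81 was in the 8th place in A375neg at 61.1 RPKM, between LMNB1 at 79.5 and LMNB2 at 50, and its libraries overlapped with those of neither. In A375RIPK4.KO, KRT81 fell to the 20th place at 0.393 RPKM, where its libraries overlapped with those of KRT9 at 0.470 and KRT86 at 0.348. VIM, LMNA and KRT18 took the first 3 places in both groups. VIM took 0.459% to 0.505% of all counts in a library and LMNA 0.216% to 0.280%, and the 38 members together took 1.10% to 1.17%.

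**Figure D2:**
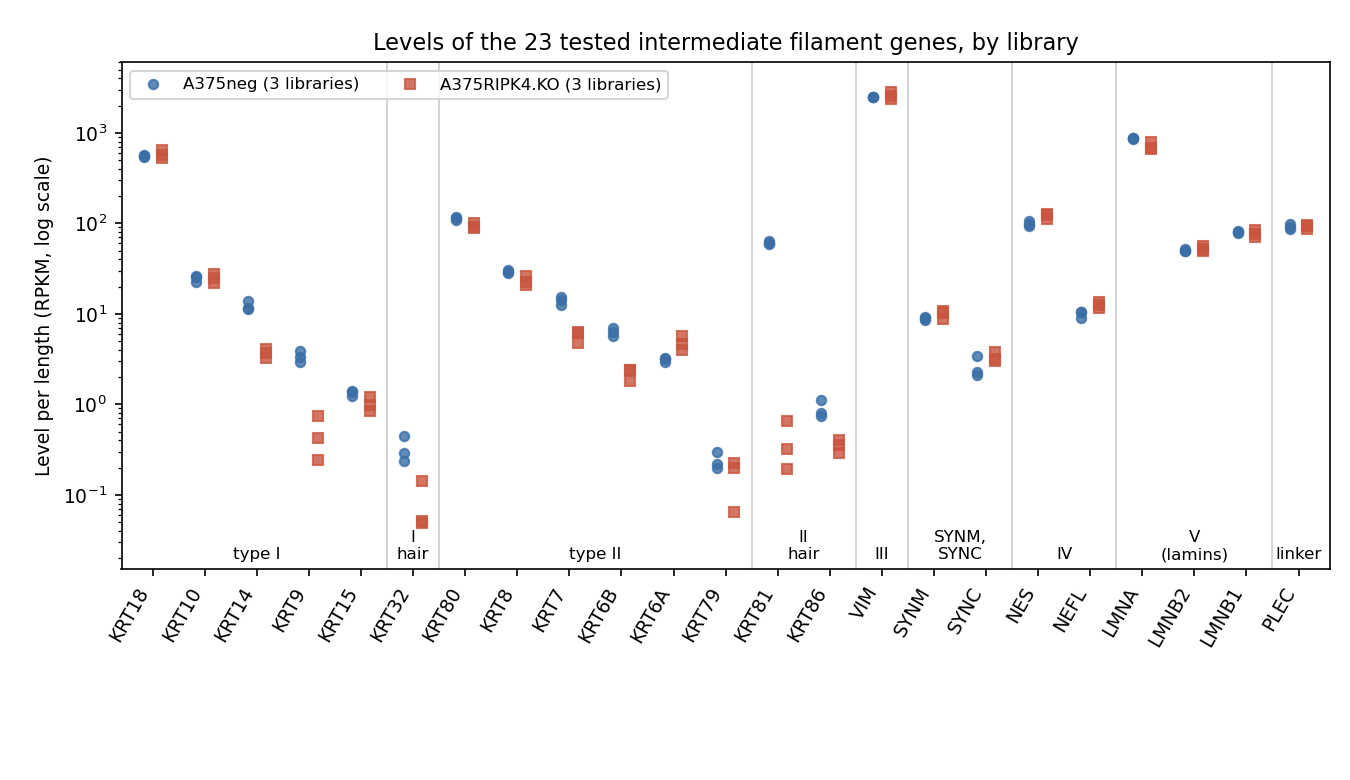
RNA level per length (RPKM, log scale) of the 23 tested members in each of the 6 libraries, grouped by filament type, with circles for A375neg and squares for A375RIPK4.KO. VIM is highest in both groups (2513 and 2599 RPKM), and the gap between circles and squares is widest for KRT81 (61.1 against 0.393 RPKM).

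The keratins of A375neg cells were led by 1 type I gene and shared among several type II genes. Among the 11 type I rows, KRT18 held 92.8% ± 0.158 (SD, n = 3) of the summed RPKM in A375neg and 95% ± 0.0462 in A375RIPK4.KO. Among the 13 type II rows, KRT80 held 49.7% ± 0.757 (SD, n = 3) in A375neg, KRT81 held 26.6% ± 0.545 and KRT8, the usual partner of KRT18, held 12.8% ± 0.538. In A375RIPK4.KO, the KRT81 share was 0.293% ± 0.158 (SD, n = 3), while KRT80 held 71.7% ± 1.02 and KRT8 held 17.7% ± 0.810. KRT80 and KRT8 thus made up more of the type II total in A375RIPK4.KO, although their own levels were lower there, at 93.4 against 114 RPKM for KRT80 and 23.1 against 29.4 for KRT8.

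In sum over all type I keratins, the level was 601, 606 and 580 RPKM in A375neg replicates 1 to 3 and 603, 680 and 555 in A375RIPK4.KO. These ranges overlapped. The type II sum was 227, 238 and 224 RPKM in A375neg and 124, 142 and 125 in A375RIPK4.KO, without overlap. The ratio of type I to type II keratin RNA was 2.59 ± 0.0563 (SD, n = 3) in A375neg and 4.69 ± 0.214 in A375RIPK4.KO. These sums are descriptions and were not tested. They and the shares above rest in part on KRT8 and KRT18, whose RefSeq spans overlap on opposite strands. Counting settings for strand and for reads that match several genes were not given in the sources used here.

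**Figure D3:**
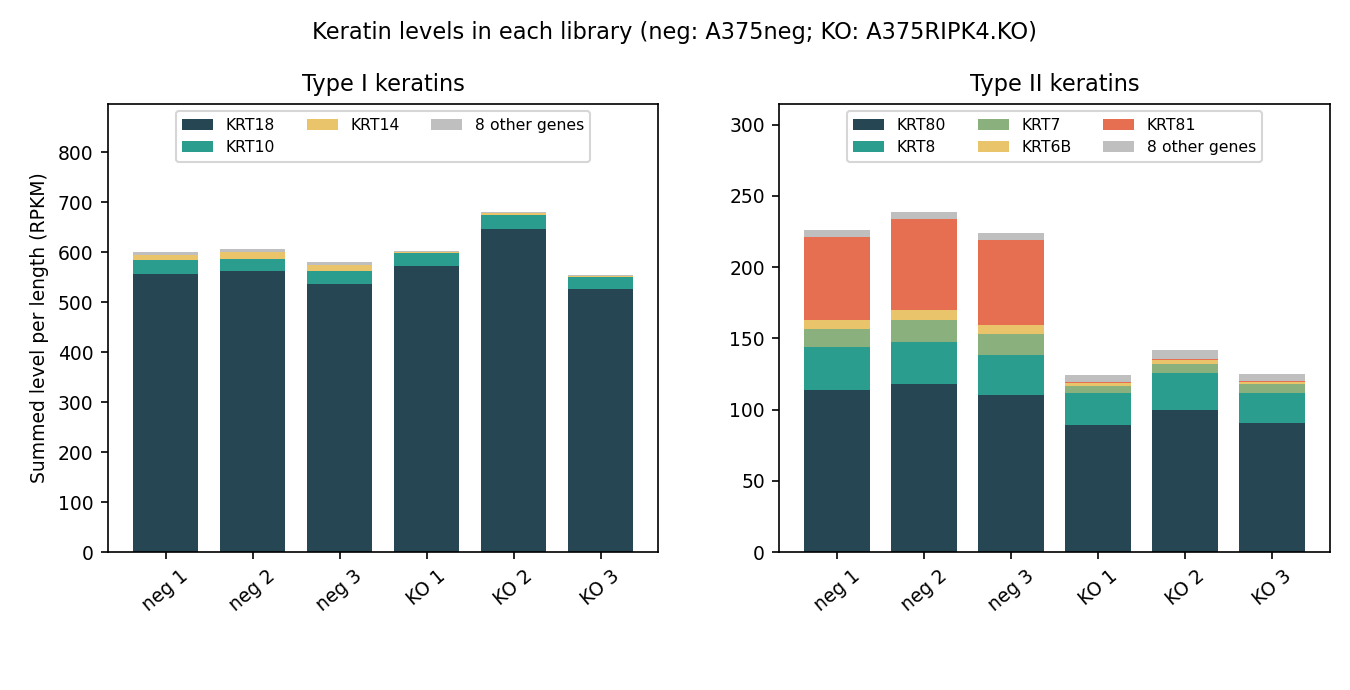
Summed RNA level per length (RPKM, stacked bars from 0) of type I keratins (left) and type II keratins (right) in each library, with the 2 panels on different vertical scales. KRT18 fills most of each type I bar, and the KRT81 segment of the type II bars is seen only in the 3 A375neg libraries, where the bars reach 224 to 238 RPKM against 124 to 142.

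Of the type II hair keratins, KRT81 had the largest difference of all tested members, while KRT86 differed less than KRT9, KRT14 and KRT6B. KRT81, a basic keratin of the hair cortex, is encoded on the minus strand at chr12:52285913-52291534 (GRCh38, RefSeq). Its normalized count (raw counts scaled to a common library size by the TMM method) was 2783.5, 3044.5 and 2842.5 in A375neg replicates 1 to 3 and 15.3, 31.3 and 9.13 in A375RIPK4.KO. The lowest A375neg library thus lay far above the highest A375RIPK4.KO library, which was replicate 2. Means were 2890 ± 137 (SD, n = 3) and 18.6 ± 11.5, a log2 fold change of −7.27 (standard error 0.21, edgeR, adjusted p = 1.18e-07). Without A375RIPK4.KO replicate 2 the log2 fold change was −7.88, which is more than 1.5 times further apart as a fold, and over the other single-library alternatives it was −7.30 to −6.94.

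KRT86, also a basic cortex keratin, was a minor species. Its normalized count was 61.0, 40.5 and 43.6 in A375neg and 21.9, 15.7 and 19.3 in A375RIPK4.KO, and the groups did not overlap. It was 2.54-fold lower in A375RIPK4.KO (log2 fold change −1.35, standard error 0.29, edgeR, adjusted p = 0.0128). The call was lost without A375neg replicate 1, the library with the highest count (log2 fold change −1.15, edgeR, adjusted p = 0.0536). KRT83, the remaining hair keratin of type II with a row, had 0 to 4 raw counts in every library and was not tested. Summed over KRT81, KRT83 and KRT86, type II hair keratin RNA was 62.0 ± 2.74 RPKM (SD, n = 3) in A375neg and 0.793 ± 0.169 in A375RIPK4.KO.

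The counts of KRT81 and KRT86 cannot be separated fully, because their coding sequences are 90.9% identical and 25.6% of all 150-base stretches of the KRT81 transcript also occur in KRT86 (22.1% of those of KRT86 occur in KRT81). In RefSeq, KRT81 also lies inside the span of KRT86 (chr12:52274645-52309163, plus strand) on the opposite strand. The libraries were strand-specific, but the strand setting used for counting was not given in the sources used here. A stretch of 75 coding bases from base 799 of each coding sequence is shown. It was chosen as the stretch where the pair differs most, among those inside 1 exon and without a gap. It lies in exon 5 of KRT81 (chr12:52288011-52288085, minus strand) and exon 7 of KRT86 (chr12:52305303-52305377, plus strand) of the GENCODE v29 transcripts on GRCh38, and capitals mark the 5 bases that differ:
KRT81: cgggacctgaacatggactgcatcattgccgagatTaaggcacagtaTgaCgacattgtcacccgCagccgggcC
KRT86: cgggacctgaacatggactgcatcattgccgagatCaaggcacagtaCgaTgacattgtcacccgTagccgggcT
Counted from 1 at the first printed base and given from KRT81 to KRT86, the differences are T36C, T48C, C51T, C66T and C75T. The printed stretch has 35 bases before its first difference. With the counts of both genes added together as 1 feature, the log2 fold change was −6.29 (edgeR, adjusted p = 1.26e-08). How far reads from KRT81 entered the count of KRT86 was not tested.

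Among the keratins of stressed and proliferating epidermis, the closely related genes KRT6A and KRT6B moved in opposite directions. KRT6B had normalized counts of 320, 392 and 355 in A375neg and 133, 134 and 102 in A375RIPK4.KO, without overlap. It was 2.89-fold lower in A375RIPK4.KO (log2 fold change −1.53, standard error 0.15, edgeR, adjusted p = 0.000185). KRT6A had normalized counts of 168, 184 and 178 in A375neg and 264, 322 and 224 in A375RIPK4.KO, so that every knockout library lay above every control library. Its increase was just past the fold limit, at 1.53-fold (log2 fold change 0.61, standard error 0.16, edgeR, adjusted p = 0.0288). The KRT6A call was lost without any 1 of the 3 A375neg libraries, and without A375RIPK4.KO replicate 1 or replicate 2, with adjusted p-values of 0.056 to 0.0958 in edgeR. It was kept without A375RIPK4.KO replicate 3, at a log2 fold change of 0.73 (edgeR, adjusted p = 0.0201).

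The KRT6 genes are closer to each other in coding sequence than KRT81 and KRT86, but share fewer whole stretches of 150 bases. Identity was 97.5% identity between the coding sequences of KRT6A and KRT6B, 97.9% between KRT6A and KRT6C and 98.5% between KRT6B and KRT6C. Of all 150-base stretches, 9.25% of those of KRT6A, 12.8% of those of KRT6B and 16.5% of those of KRT6C also occur in another KRT6 gene. The pair KRT6A and KRT6B can still be told apart in places. A stretch of 75 coding bases from base 671, in exon 2 of both genes, is shown for that reason. It was chosen by the same rule, as the stretch where the pair differs most. It lies at chr12:52491532-52491606 in KRT6A and at chr12:52450416-52450490 in KRT6B (GRCh38, minus strand, GENCODE v29), with the 10 differing bases in capitals:
KRT6A: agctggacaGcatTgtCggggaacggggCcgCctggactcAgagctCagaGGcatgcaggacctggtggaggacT
KRT6B: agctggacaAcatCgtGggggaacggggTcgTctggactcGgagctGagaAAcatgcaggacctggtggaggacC
From KRT6A to KRT6B, the differences are G10A, T14C, C17G, C29T, C32T, A41G, C47G, G51A, G52A and T75C. KRT6C, the third gene of the group, had 3 to 13 raw counts in A375neg and 0 to 3 in A375RIPK4.KO and was not tested. With KRT6A, KRT6B and KRT6C added together as 1 feature, the log2 fold change was −0.45 (edgeR, adjusted p = 0.0417) and did not reach the 1.5-fold limit. Mean normalized counts fell from 355.6 to 123.1 for KRT6B and rose from 176.8 to 270.4 for KRT6A. The sum thus follows KRT6B and does not give the direction of KRT6A. How far reads of these genes entered each other's counts was not tested.

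The partners of KRT6 were scarce. KRT16, a type I keratin of activated epidermis, had 22, 27 and 8 raw counts in A375neg and 4, 3 and 1 in A375RIPK4.KO, which did not overlap but were too low for the main test. It was called when no filter on low counts was applied (edgeR, adjusted p = 0.0257) and by DESeq2 (log2 fold change −2.68, adjusted p = 0.0215). With it, 8 of the 38 members (21.1%) were called by edgeR without the filter, beside 6.28% of all genes. Of these, 7 were lower, beside 3.17% of all genes. DESeq2 also called 8 members, beside 8.07% of the 16772 genes that it gave an adjusted p. Some members, such as KRT87P, had no adjusted p in DESeq2. KRT17, a close relative of KRT16, had at most 5 raw counts in any library.

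The other called keratins were KRT14 and KRT9 of type I and KRT7 of type II, all lower in A375RIPK4.KO. KRT14, the type I keratin of basal keratinocytes, had normalized counts of 461, 559 and 478 in A375neg and 132, 165 and 149 in A375RIPK4.KO. This was a 3.35-fold difference without overlap (log2 fold change −1.75, standard error 0.13, edgeR, adjusted p = 3.46e-05). KRT5, the type II chain that KRT14 pairs with in epidermis, had only 2 to 11 raw counts in any library and was not tested.

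KRT9, the type I keratin of palm and sole epidermis, had normalized counts of 186, 219 and 166 in A375neg and 24.1, 13.6 and 41.6 in A375RIPK4.KO. Replicate 3 was the highest of the knockout libraries and still lay below every control library. The gene was 7.17-fold lower (log2 fold change −2.84, standard error 0.34, edgeR, adjusted p = 0.000527). KRT7, a type II keratin of glandular and ductal epithelia, had normalized counts of 543, 662 and 612 in A375neg and 204, 266 and 274 in A375RIPK4.KO. It was 2.44-fold lower without overlap (log2 fold change −1.29, standard error 0.13, edgeR, adjusted p = 0.000216). KRT7 (plus strand) overlaps the pseudogene KRT87P (minus strand), which had 2, 7 and 2 raw counts in A375neg and 0 in every A375RIPK4.KO library. KRT14, KRT9, KRT7, KRT6B and KRT81 were called under each of the 6 single-library alternatives.

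The keratins of simple epithelia were abundant and differed little. KRT18 had normalized counts of 21363, 21568 and 20596 in A375neg and 21968, 24776 and 20200.0 in A375RIPK4.KO, and the groups overlapped (log2 fold change 0.08, standard error 0.08, edgeR, adjusted p = 0.577). KRT8, its type II partner, had 1580.7, 1530.1 and 1493 normalized counts in A375neg and 1165, 1354 and 1089 in A375RIPK4.KO. These did not overlap, and KRT8 passed on the adjusted p alone at 1.28-fold lower (log2 fold change −0.35, standard error 0.09, edgeR, adjusted p = 0.0218). KRT80, a type II keratin of many epithelia and the most abundant of its type here, was likewise 1.22-fold lower (log2 fold change −0.29, standard error 0.07, edgeR, adjusted p = 0.0174). Its normalized counts were 10417.5 to 11153 in A375neg and 8452.5 to 9495 in A375RIPK4.KO, without overlap. KRT8 missed the adjusted p of 0.05 in 5 of the 6 single-library alternatives (all but the one without A375RIPK4.KO replicate 2), at 0.0593 to 0.0885 in edgeR. KRT80 missed it without A375neg replicate 1 or 2 and without A375RIPK4.KO replicate 1 or 3, at 0.0524 to 0.0856. The KRT8 span in RefSeq overlaps that of KRT18 on the opposite strand, to which the limit on strand given for KRT81 applies too.

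The remaining tested keratins did not pass. KRT10, the type I keratin of differentiating epidermis, had 1302 ± 102 normalized counts (SD, n = 3) in A375neg and 1297 ± 151 in A375RIPK4.KO (log2 fold change −0.01, standard error 0.10, edgeR, adjusted p = 0.976). KRT15, found in basal cells and the hair follicle bulge, had 172 ± 12.5 and 130.0 ± 21.9 (edgeR, adjusted p = 0.145), and its exon position in the table does not overlap the RefSeq gene. KRT32, a type I keratin of the hair cuticle, had 19, 11 and 13 raw counts in A375neg and 2, 2 and 6 in A375RIPK4.KO. Its groups did not overlap, and the log2 fold change of −1.94 (standard error 0.59) missed the threshold (edgeR, adjusted p = 0.0535). KRT79, a type II keratin of the hair follicle duct, had 3 to 16 raw counts over both groups, which overlapped (edgeR, adjusted p = 0.548).

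By class, 2 of the 5 tested epithelial keratins of type I were called lower, as were 2 of 6 epithelial keratins of type II (with KRT6A called higher) and 2 of 2 hair keratins of type II, beside 4.65% of all genes lower and 4.39% higher. The 1 tested hair keratin of type I was not called. The remaining 11 keratin rows were KRT4, KRT5, KRT6C, KRT16, KRT17, KRT19, KRT34, KRT75, KRT83, KRT87P and KRT222, with at most 27 raw counts in any library. KRT19, a type I keratin of simple epithelia without a tail domain, had 6, 3 and 10 raw counts in A375neg and 0, 0 and 1 in A375RIPK4.KO. Of all 15 untested members, 9 had a lower mean normalized count in A375RIPK4.KO. Transcripts of KRT222 share 55.1% of their 150-base stretches with another gene, so its 0 to 8 raw counts are uncertain.

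Keratin genes sit in 2 clusters, type II with KRT18 on chromosome 12 and the other type I genes on chromosome 17. On chromosome 12, 5 of 9 tested keratins were called and on chromosome 17, 2 of 5 were, beside 9.04% of all genes. With near-identical genes added together, the called features on chromosome 12 were KRT7 and the sum of KRT81 and KRT86. On chromosome 12 the called genes follow each other in the order KRT7, KRT86, KRT81, KRT6B and KRT6A by start position. Their directions differ, with KRT6A higher and the others lower. The calls of KRT6A and KRT86 were lost in some single-library alternatives. The keratins that start between the called genes (KRT87P, KRT83, KRT75 and KRT6C) were not tested. The tested keratins without a call lie outside this stretch, KRT80 before it and KRT79, KRT8 and KRT18 after it. Between the first and the last keratin of the chromosome 17 cluster, 1 other gene was tested and was not called, and there was none on chromosome 12.

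KRT9 and KRT10 lie in the same cluster on chromosome 17 and are both type I. Their promoters are shown because KRT9 was called lower and KRT10 was not called. Each sequence is the 250 bases before the annotated start in RefSeq (GRCh38.p14, minus strand), chr17:41572060-41572309 for KRT9 and chr17:40822615-40822864 for KRT10, and capitals mark matches to the motifs searched:
KRT9: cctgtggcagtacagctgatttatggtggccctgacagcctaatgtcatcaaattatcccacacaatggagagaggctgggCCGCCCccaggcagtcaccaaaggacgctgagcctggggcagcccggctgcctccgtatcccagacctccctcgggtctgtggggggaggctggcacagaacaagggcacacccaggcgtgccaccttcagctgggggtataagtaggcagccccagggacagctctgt
KRT10: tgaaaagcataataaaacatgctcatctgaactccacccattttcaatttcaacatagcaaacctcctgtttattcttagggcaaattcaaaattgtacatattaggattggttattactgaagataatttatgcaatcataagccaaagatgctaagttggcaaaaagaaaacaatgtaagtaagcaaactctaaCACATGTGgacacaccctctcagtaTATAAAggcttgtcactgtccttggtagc
The motifs were TATAAA (the TATA box), TGANTCA (AP-1), GGGCGG (SP1) and CATGTG (an E-box of the kind that MITF binds), on both strands of windows of 300 bases that also hold the first 50 bases of the gene. Positions count from −1 at the base before the start and give the first base of a match. KRT9 holds GGGCGG on the opposite strand at −169 and no other exact match to these motifs. Only exact matches were counted, and the printed KRT9 sequence holds tataag, a near match to TATAAA, close to its end. KRT10 holds TATAAA at −29 and 2 overlapping matches to CATGTG at −54 and −52, 1 on each strand. Among all 35116 windows, TATAAA occurs in 11.5%, TGANTCA in 7.71%, GGGCGG in 45% and CATGTG in 11.1%.

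Windows were matched for 16 of the 38 members, 9 of them keratins. GGGCGG occurred in 3 of the 9 keratins and in 7 of the 7 other members, counting a gene with several starts once. TATAAA occurred in 2 of the 9 keratins and in 0 of the 7 others, CATGTG in 1 of each, and TGANTCA in none of the 16. A match describes these letters and is not a binding site.

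The filament genes outside the keratins were mostly abundant and differed by less than 1.5-fold. Of the 9 tested, 0 were called in either direction by edgeR and 0 by DESeq2, which at 9.04% of all genes called is close to the background. With edgeR, 3 of the 9 (NES, NEFL and LMNA) passed on the adjusted p alone, and the same number had an unadjusted p under 0.05. These passes were lost in some single-library alternatives: for NES without A375neg replicate 2 or 3 or A375RIPK4.KO replicate 1 (edgeR, adjusted p = 0.0804 to 0.136), and for NEFL without any 1 of the A375neg libraries or A375RIPK4.KO replicate 1 (0.0713 to 0.124). VIM, the main cytoplasmic filament of mesenchymal cells and melanocytes, had normalized counts of 114986, 115130 and 115411 in A375neg and 109732, 129498 and 118169 in A375RIPK4.KO. The knockout libraries lay on both sides of the control libraries (log2 fold change 0.05, standard error 0.07, edgeR, adjusted p = 0.693). NES, the type IV filament nestin of neural crest and progenitor cells, had normalized counts of 14569, 12825 and 13395 in A375neg and 17496, 16945 and 15282 in A375RIPK4.KO. All knockout libraries were above all control libraries, at 1.22-fold (log2 fold change 0.29, standard error 0.08, edgeR, adjusted p = 0.032). NEFL, the light chain of neurofilaments, was 1.25-fold higher (log2 fold change 0.32, standard error 0.09, edgeR, adjusted p = 0.0378). Its normalized counts were 896 to 1066 in A375neg and 1174 to 1352 in A375RIPK4.KO, without overlap. The medium and heavy neurofilament chains NEFM and NEFH had at most 4 raw counts in any library.

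Of the lamin genes, LMNA passed on the adjusted p alone. LMNA, which encodes lamins A and C, had normalized counts of 66884, 68961 and 67864 in A375neg and 51794, 61635 and 52566 in A375RIPK4.KO. The knockout libraries were all lower, at 1.23-fold (log2 fold change −0.29, standard error 0.08, edgeR, adjusted p = 0.0302). The adjusted p was 0.0803 to 0.121 in edgeR when any library but A375RIPK4.KO replicate 2 was left out, and 0.0822 without the filter on low counts. The B-type lamins LMNB1 and LMNB2 did not pass (log2 fold changes −0.05 and 0.08, edgeR, adjusted p = 0.711 and 0.469). The summed level of the 3 lamin genes was 997 ± 12.5 RPKM (SD, n = 3) in A375neg and 837 ± 65.4 in A375RIPK4.KO.

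The remaining members did not differ beyond the test's threshold. SYNM, which encodes synemin, a partner of vimentin and desmin, had a log2 fold change of 0.14 (edgeR, adjusted p = 0.306). SYNC, which encodes syncoilin, had 283, 190 and 177 normalized counts in A375neg and 316, 255 and 267 in A375RIPK4.KO, overlapping through A375neg replicate 1 (log2 fold change 0.37, edgeR, adjusted p = 0.241). Without that library SYNC was called higher, at a log2 fold change of 0.60 (edgeR, adjusted p = 0.0482). PLEC, which encodes plectin, the linker of intermediate filaments to actin and to hemidesmosomes, had 34449 ± 2136 normalized counts (SD, n = 3) in A375neg and 34328 ± 2151 in A375RIPK4.KO (edgeR, adjusted p = 0.971). DES and GFAP, the filaments of muscle and of astrocytes, had at most 7 and 3 raw counts.

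Genes that bind, regulate or accompany these filaments were read from further lists. Of the 7 tested plakins and desmosomal linkers, which tie keratin filaments to junctions, 3 were higher and 0 were lower in A375RIPK4.KO. This stands beside 4.39% of all tested genes higher and 4.65% lower. The median log2 fold change of the list was 0.37. PKP2, the plakophilin of simple epithelia and heart, had 432 to 544 raw counts in A375neg and 839 to 1009 in A375RIPK4.KO (log2 fold change 1.02, edgeR, adjusted p = 7.31e-05). DSP, which encodes desmoplakin, had 348 to 437 and 538 to 673 raw counts (log2 fold change 0.72, edgeR, adjusted p = 0.0013). DST, which encodes the hemidesmosome linker dystonin, had 1383 to 1551 and 1810 to 2410 raw counts (log2 fold change 0.70, edgeR, adjusted p = 0.00337). The list held 3 calls under each of the alternatives run on it. Among the genes under the fold limit, PKP4 was higher (log2 fold change 0.37, edgeR, adjusted p = 0.00451). PKP3 was lower, with 853 to 966 raw counts in A375neg and 587 to 739 in A375RIPK4.KO (log2 fold change −0.36, edgeR, adjusted p = 0.0228).

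Of the 10 tested regulators of epidermal and hair keratin genes, 0 were higher and 3 were lower, beside 4.39% and 4.65% of all genes. Their median log2 fold change was −0.33. KLF4, a transcription factor of the epidermal barrier, had 340 to 366 raw counts in A375neg and 109 to 135 in A375RIPK4.KO (log2 fold change −1.39, edgeR, adjusted p = 0.000132). KLF5, a factor of proliferating epithelium, had 3798 to 4406 and 2279 to 2853 (log2 fold change −0.59, edgeR, adjusted p = 0.000664). GRHL1, a grainyhead-like factor of desmosomal genes, had 40 to 78 and 20 to 25 (log2 fold change −1.18, edgeR, adjusted p = 0.044). The list held 1 call without A375RIPK4.KO replicate 1 or replicate 2, and 2 calls when any other library was left out, without the filter on low counts and with a mean of at least 50 counts. HOXC13, a homeobox factor of hair keratin genes, had 614 to 678 and 414 to 494 raw counts and did not reach the fold limit (log2 fold change −0.33, edgeR, adjusted p = 0.0449).

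Of the 16 tested partners of the nuclear lamina, 1 was called, beside 9.04% of all genes. It was the nucleoporin NUP210 (log2 fold change −0.77, edgeR, adjusted p = 0.0301). The list held 1 call without A375RIPK4.KO replicate 1 and 0 when any of the other 5 libraries was left out. Among the other intermediate filament genes, 0 of 4 tested (BFSP1, IFFO1, IFFO2 and TCHP) were called by edgeR, beside 9.04% of all genes. DESeq2 called 0 of them too, and 0 had an unadjusted p under 0.05 in edgeR. The 4 genes of keratin-associated proteins, which crosslink hair keratins in the hair shaft, had at most 7 raw counts in any library and were not tested.

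Markers of other cell types that could bring keratin RNA were read beside these results. Of 22 symbols of keratinocyte markers, 12 were not analysed here and 7 were tested. Of the tested ones, 1 was called higher and 2 were called lower, beside 4.39% and 4.65% of all genes. The summed level of the keratinocyte markers was 88.8 to 91.5 CPM in A375neg and 90.8 to 108 in A375RIPK4.KO, ranges that overlapped. Most of this sum was KRT10. Without KRT10, the sum was 34.5 to 40.4 CPM in A375neg and 39.8 to 49 in A375RIPK4.KO, ranges that overlapped. Without SERPINB5 as well, the other 8 genes summed to 33.4 to 39.6 and 17 to 20.8 CPM. Both genes were left out after their values had been seen. Leaving out SERPINB5 dropped the 1 gene called higher and kept the 2 called lower, KRT14 and FLG. The last sum therefore says little about the other markers of the list. The called genes were SERPINB5, which encodes maspin (17 to 28 raw counts in A375neg and 513 to 663 in A375RIPK4.KO, log2 fold change 4.85, edgeR, adjusted p = 8.2e-07), FLG, which encodes filaggrin (60 to 88 against 0 to 3, log2 fold change −5.20, edgeR, adjusted p = 0.000242), and KRT14. The defining basal marker KRT5 had at most 11 raw counts. Of the fibroblast and muscle markers, 1 of 6 tested was called, beside 9.04% of all genes (ACTA2, log2 fold change −1.15, edgeR, adjusted p = 0.00246). The fibroblast and muscle list summed to 17.9 to 20.2 CPM in A375neg and 11.2 to 13.9 in A375RIPK4.KO. Of the melanoma and melanocyte markers, 3 of 7 tested were called lower, beside 4.65% of all genes, and 0 higher, beside 4.39%. Those called were NGFR at a log2 fold change of −3.03, S100B at −0.89 and S100A1 at −0.86 (edgeR, adjusted p = 0.000141, 0.036 and 0.0449). This list held 2 calls with DESeq2 and 1 call without A375neg replicate 2 or 3 and without A375RIPK4.KO replicate 1 or 3. It summed to 946 to 988 CPM in A375neg and 952 to 1012 in A375RIPK4.KO. Most of this sum was AXL and SOX10, so it says little about the other markers of the list. The part of these markers in the keratin differences was not tested.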

How the data were processed

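Poly(A)-enriched, strand-specific libraries had been sequenced as pairs of 150-base reads by an external provider. The deposited values used here were raw counts per gene, whole numbers without normalization that the authors obtained from this provider. The submitters' processing notes name cutadapt, FastQC, HISAT2, HTSeq, DESeq2 and the build GRCh38.p13, without versions. Counting settings for strand and for reads that match several genes were not given in the sources used here. The normalized counts, fold changes, Wald statistics and p-values in the same table are the authors' own comparison and were not used.

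The fit used edgeR 4.0.16 in R 4.3.3 on the counts of 6 libraries. Low counts were removed with filterByExpr, library sizes were scaled by TMM, and p-values of the quasi-likelihood test were adjusted by Benjamini-Hochberg over the 14443 genes kept. The design had group alone, and a call needed an adjusted p under 0.05 and at least 1.5-fold. The standard error is the log2 fold change divided by the square root of F. Normalized counts are raw counts scaled to the mean TMM library size. RPKM used the principal transcript of GENCODE v29, which need not be the annotation behind the counts. Gene positions and promoters came from RefSeq and transcripts from GENCODE v29. Coding sequences were aligned with edlib 1.3.9.post1 in Python 3.11.15, and figures were drawn with matplotlib 3.10.9. The fit was tested on simulated counts.

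Named were every tested member, members called under an alternative, KRT81, RIPK4 and, from each further list, up to 4 called genes with the lowest adjusted p. KRT5, KRT17, KRT19, KRT222, HOXC13 and other genes without a call were named after their values had been seen. The members and lists were chosen with earlier results of these data known. Alternatives were DESeq2 1.42.0, its size factors in edgeR, other filters, fold limits and lengths, the replicate number as a block, summed copies and each library left out in turn.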

Additional observations from a re-analysis of the deposited data

How the results depend on the processing

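Against 7 members called, DESeq2 gave 8 and edgeR without a filter on low counts gave 8, in both cases the same 7 and KRT16. A mean of at least 50 counts gave 6, leaving out KRT86. Leaving out 1 library gave 6 to 7 members and 1059 to 1336 of all genes, against 1306. Without a fold limit the counts rose to 12 members and 2403 genes, and beyond a log2 fold change of 1.5 they fell to 4 members (KRT14, KRT6B, KRT81 and KRT9) and 465 genes. With KRT81 and KRT86, and with KRT6A, KRT6B and KRT6C, added as 1 feature each, 4 features were called. The sum of the KRT6 genes, at −0.45, was not among them. In the fit with the replicate number as a replicate block, 7 members and 1266 genes were called. Deviations of same-numbered libraries correlated at 0.0823, 0.0357 and −0.0119, and not every library correlated best with its own number. With 3 libraries per group, this cannot decide whether same-numbered libraries shared a culture, passage or day.

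Members with differences near 0 changed sign when 1 library was left out. The log2 fold change then ranged from −0.0924 to 0.074 for KRT10 (higher than 0 without A375neg replicate 1 or 3 and A375RIPK4.KO replicate 1 or 3), from −0.0444 to 0.0466 for PLEC (higher than 0 without A375neg replicate 3 or A375RIPK4.KO replicate 2), from −0.0027 to 0.144 for KRT18, from −0.0117 to 0.106 for VIM and from −0.121 to 0.0131 for LMNB1, of which the last 3 turned without A375RIPK4.KO replicate 2. Over RIPK4 and the tested members, 267 of 285 values kept direction and call. With the union of exons as length, an alternative chosen after seeing the data, type I keratins summed to 472 RPKM in A375neg and 483 in A375RIPK4.KO and type II to 211 and 116, at ratios of 2.24 and 4.16. Exon lengths from the deposited table could not be used, since it gives 1 exon per gene, and KRT33A, KRT33B and pseudogenes of KRT8 and KRT18 were not analysed here, so no sums were made for them. The alternatives run on the further lists were also chosen after seeing the data. The 15 members left untested had at most 27 counts in any library.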
